A study of Mus musculus with 2 samples.

Results

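The genes described here were the chemokines and their receptors, 62 protein-coding genes out of the 20250 measured. A gene was taken by its mouse symbol. The ligands were the Ccl and Cxcl genes, Cx3cl1 and Xcl1, 38 in all. The receptors were the Ccr, Cxcr and Ackr genes, Ccrl2, Cx3cr1 and Xcr1, 24 in all, of which 19 are conventional and 5 are atypical receptors. The rule used symbols and no measured value, but it was chosen with earlier results of these data known. The 62 genes took up 86 of the 26968 protein-coding transcript rows, 10 of them further loci of the same transcript, and 7 genes had several transcripts.

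The study sequenced the RNA of *Ebf1* -/- pre-pro-B cells in 1 library and of *Rag2* -/- pro-B cells in another, each with about 90 M single-end reads of 97 bp. Both came from C57BL/6 mice. The pre-pro-B cells were derived from female fetal liver and grown in 5 ng/mL Il-7, 10 ng/mL Scf and 10 ng/mL Flt3l, whereas the pro-B cells came from the bone marrow of adult males and were grown in 5 ng/mL Il-7. Cell type, genotype, sex, age, tissue of origin and cytokines therefore cannot be told apart. Both cell types grew on OP-9 cells, a mouse bone marrow stromal line, and were harvested as suspended cells after a 30 min re-plating step meant to let the stroma attach. Reads of mouse stroma and of mouse B cells cannot be separated by sequence. With 1 library per cell type there is no replicate error and no test, so a difference is described by its size and compares these libraries only. In such bulk samples, fewer cells of a type and less RNA per cell also cannot be told apart.

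Chemokines are small secreted proteins that direct the movement of cells by binding seven-transmembrane receptors, which signal through Gi proteins. They are named by the spacing of their leading cysteines (CC, CXC, CX3C and XC). In bone marrow and fetal liver, Cxcl12 made by stromal cells holds B cell precursors and other progenitors in place through Cxcr4, and other receptors, among them Ccr9, Ccr7 and Cxcr5, guide lymphoid cells to the thymus, lymph nodes and follicles. Atypical receptors bind chemokines without the usual Gi signalling and act as scavengers or presenters.

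The values are FPKM, the fragments mapped to a transcript divided by its length and by the depth of the library, summed over the protein-coding transcripts of a gene. A gene was called higher or lower in pro-B cells when log2((pro-B FPKM + 1)/(pre-pro-B FPKM + 1)) reached 1 or -1, that is 2-fold after the addition of 1, and it reached 1 FPKM in a library. The addition of 1 understates the differences of weak genes. Cuffdiff, the program behind the FPKM, also gave each transcript a 95% interval, which rests on a model of the single library and holds no replicate error. An FPKM of 0 is given here as listed at 0, since housekeeping genes such as Gapdh (0.0273 and 0.0991 FPKM) and Rps27 (0 and 1.10 FPKM) were also at or near 0 in this table.

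The labels were compared with known genes first. The targeted gene *Ebf1* had 64.0 FPKM in the *Ebf1* -/- library and 273 FPKM in the pro-B library, and *Rag2* had 34.5 FPKM in pre-pro-B cells and 22.9 FPKM in the *Rag2* -/- library, so both null libraries held transcript of the targeted gene. These values cover the whole transcript and do not show the deleted part. All 12 B lineage genes examined were higher in pro-B cells (142 against 4387 FPKM in sum). Of 6 progenitor genes, 5 were lower in pro-B cells, among them Cd34 (534 and 1.52 FPKM) and Flt3 (303 and 0.916 FPKM). Ptprc, which encodes the pan-leukocyte surface protein CD45, had 269 FPKM in pre-pro-B and 0.917 FPKM in pro-B cells. Since Gapdh was near 0 in both libraries, such a low value can be a failed estimate of the program, and the same limit holds for every very low pro-B value below and for the folds made from it.

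Chemokines and chemokine receptors were mostly under 1 FPKM in both libraries, and where they were expressed they were mostly lower in pro-B cells. Of the 62 genes, 18 (29.0%) were called lower, against 9.94% of all protein-coding genes. The 2 called higher, the receptor Cxcr4 and its ligand Cxcl12, were 3.23% of the members, against 6.34% of all genes. That level was reached by 20 members (32.3%) in the pre-pro-B library, against 49.5% of all genes, and by 6 members (9.68%) in pro-B cells, against 46.2% of all genes. In all, 21 members reached it in a library, 41 stayed under it in both, and 22 were listed at 0 in both. The median log2 difference was -0.01 over the 62 members, with 0 over the ligands and -0.72 over the receptors. It was 0 over all genes and -0.14 over the genes with at least 1 FPKM in a library.

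Ligands and receptors differed in how much of their signal was left in pro-B cells. Of all protein-coding genes, 9.94% were called lower and 6.34% higher. Among the 38 ligands, 6 were lower (15.8%), 1 was higher (2.63%) and 31 were not called. Their summed FPKM was 245.0 in pre-pro-B and 7.48 in pro-B cells, 32.7-fold lower. Among the 24 receptors, 12 were lower (50%), 1 was higher (4.17%) and 11 were not called. Their summed FPKM was 610.5 in pre-pro-B and 417 in pro-B cells, 1.46-fold lower. The receptor sum was carried by Cxcr4 alone in pro-B cells: without it, the sum of the other receptors was 477 FPKM in pre-pro-B and 34.9 FPKM in pro-B cells.

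**Figure D1:**
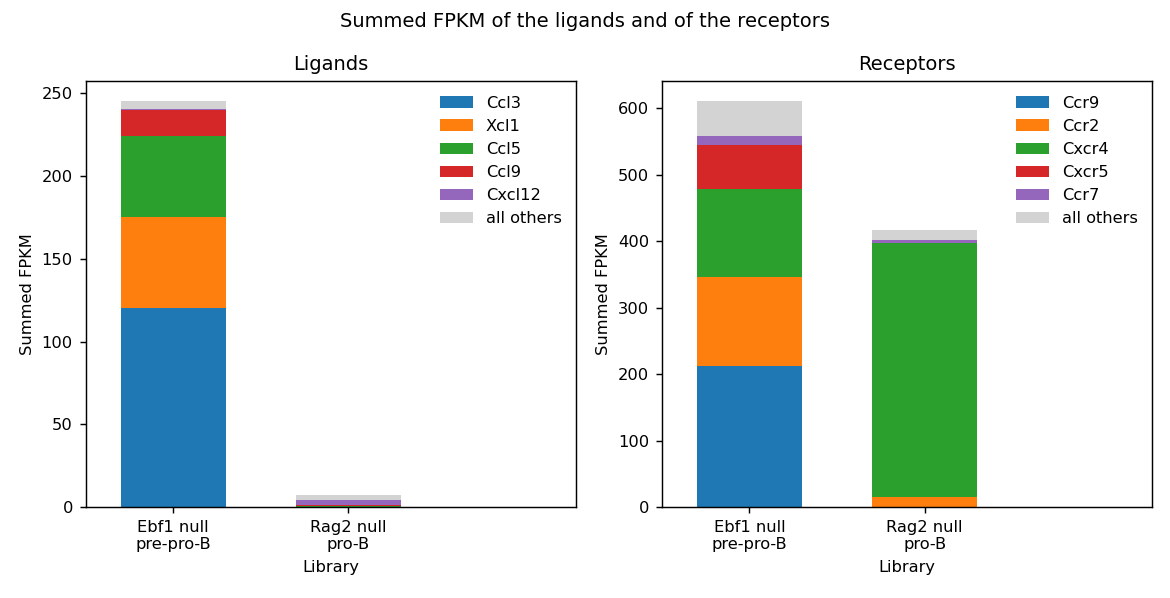
Summed FPKM of the 38 ligands (left) and 24 receptors (right) in the 1 pre-pro-B and the 1 pro-B library, with each coloured block 1 gene and grey the rest. Ccl3, Ccl5 and Xcl1 made up most of a ligand sum of 245.0 FPKM that was 7.48 FPKM in pro-B cells, whereas Cxcr4 was the main block of the receptor sum of 417 FPKM in pro-B cells.

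The CC ligands held most of the ligand signal of pre-pro-B cells, 189 of 245.0 FPKM, whereas in pro-B cells they held 3.02 of 7.48 FPKM and the CXC ligands 4.25 FPKM. Ccl3, Ccl5 and Xcl1 together made up 91.5% of the summed ligand FPKM of pre-pro-B cells. Ccl3 (MIP-1α), an inflammatory chemokine that binds Ccr1, had 120.0 FPKM in pre-pro-B cells against 0.384 FPKM in pro-B cells, 313-fold lower. The Cuffdiff intervals of Ccl3, 25.5 to 214 and 0 to 1.25 FPKM, did not overlap. Its log2 difference of -6.45 placed Ccl3 as the gene with rank 14 among all 20250 genes ordered from the largest fall.

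Xcl1 (lymphotactin), the ligand of Xcr1 and a product of T and NK cells, had 54.9 FPKM in pre-pro-B cells (interval 5.04 to 105) but was listed at 0 in pro-B cells, a log2 difference of -5.80. Ccl5 (RANTES), which binds Ccr1 and Ccr3, had 49.3 FPKM in pre-pro-B and 0.420 FPKM in pro-B cells, 117-fold lower, with intervals of 0.893 to 112 and 0 to 1.86 FPKM that overlapped. Ccl9, a myeloid chemokine of mice that binds Ccr1, had 15.8 FPKM (2.43 to 29.1) and 0.831 FPKM (0 to 1.66), 19.0-fold lower, and its intervals did not overlap. The remaining CC ligands that were called were weak. Ccl6, another Ccr1 ligand, had 1.57 and 0.0353 FPKM, and Ccl4 (MIP-1β), its inflammatory neighbour, had 1.20 FPKM and was listed at 0 in pro-B cells.

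Of the 24 CC ligands, these 5 (20.8%) were lower and none was higher, against 9.94% and 6.34% of all protein-coding genes. Another 14 were listed at 0 in both libraries. The sum of all 24 was 189 FPKM in pre-pro-B and 3.02 FPKM in pro-B cells. Among those listed at 0 were Ccl19, Ccl21a, Ccl21b and Ccl21c, the Ccr7 ligands of lymphoid tissue, and Ccl20, the Ccr6 ligand. Sequence cannot separate the Ccl21 copies well: of the stretches of 32 bases in their transcripts, 99.8% of those of Ccl21b also occurred in Ccl21c, and 80.1% of those of Ccl21a occurred in Ccl21b. Ccl21a and Ccl21b were also the only members with transcript rows that Cuffdiff marked as having too little data (4 rows).

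Cxcl12 (SDF-1), the chief stromal ligand of Cxcr4, was the only ligand that was higher in pro-B cells and the only one with at least 1 FPKM there. It had 0.618 FPKM in pre-pro-B and 2.92 FPKM in pro-B cells, 4.74-fold higher, or about 139 and 642 fragments at 90 M reads. The summed intervals, 0 to 2.49 and 0 to 9.48 FPKM, overlapped. All 3 of its transcripts had the larger value in pro-B cells. The isoform NM_021704 had 0.341 and 1.74 FPKM, NM_013655 had 0.265 and 1.15 FPKM, and NM_001012477 had 0.0121 and 0.0425 FPKM. Their proportions were near each other in the libraries, with NM_021704 at 55.1% of the gene in pre-pro-B and 59.4% in pro-B cells.

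Most stromal genes had a like direction, at low levels. Of 19 mesenchymal genes, 15 had the larger FPKM in pro-B cells. Of the 19, 3 (Col6a1, Col1a2 and Acta2) were called higher and 1 (Pdgfrb) was called lower, against 6.34% and 9.94% of all protein-coding genes. The intervals of the 3 called higher overlapped between the libraries. Col6a1, a collagen VI chain, had 1.17 and 4.05 FPKM, Col1a2, a collagen I chain, had 0.707 and 2.82 FPKM, and Acta2, the smooth muscle actin gene, had 0.608 and 2.39 FPKM. Bgn, the matrix proteoglycan biglycan, had 2.52 and 5.04 FPKM and was not called. The summed FPKM of the list was 25.2 in pre-pro-B and 26.6 in pro-B cells. Pdgfrb, the only gene of the list that was called lower, had 15.9 FPKM in pre-pro-B and 0.377 FPKM in pro-B cells. Without Pdgfrb, an exclusion that was not planned, the sum was 9.24 and 26.2 FPKM, 2.84-fold higher in pro-B cells. Dcn and Postn, 2 defining genes of the list, were listed at 0 in both libraries. The part of stromal RNA in the Cxcl12 difference was not tested.

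The other 11 CXC ligands were under 1 FPKM in both libraries, and 6 of the 12 CXC ligands were listed at 0 in both. Cxcl1 (KC) and Cxcl5 (LIX), Cxcr2 ligands that draw neutrophils, had 0.0424 and 0.790 FPKM and 0.0392 and 0.454 FPKM in pre-pro-B and in pro-B cells, so they shared the direction of Cxcl12 at a level that was not called. Cxcl13, the Cxcr5 ligand of lymphoid follicles, and Cxcl9 and Cxcl10, the interferon-induced ligands of Cxcr3, were listed at 0 in both. Across all ligands that were not called, the highest value was 0.905 FPKM, that of Ccl25 in pro-B cells. Ccl25 (TECK), the thymic and intestinal ligand of Ccr9, had 0.472 FPKM in pre-pro-B cells. Cx3cl1 (fractalkine), a membrane-bound ligand, had 0.490 and 0.214 FPKM. Ccl7 had 0.292 and 0.445 FPKM, and Ccl2 (MCP-1), the main ligand of Ccr2, had 0.216 FPKM and was listed at 0 in pro-B cells.

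**Figure D2:**
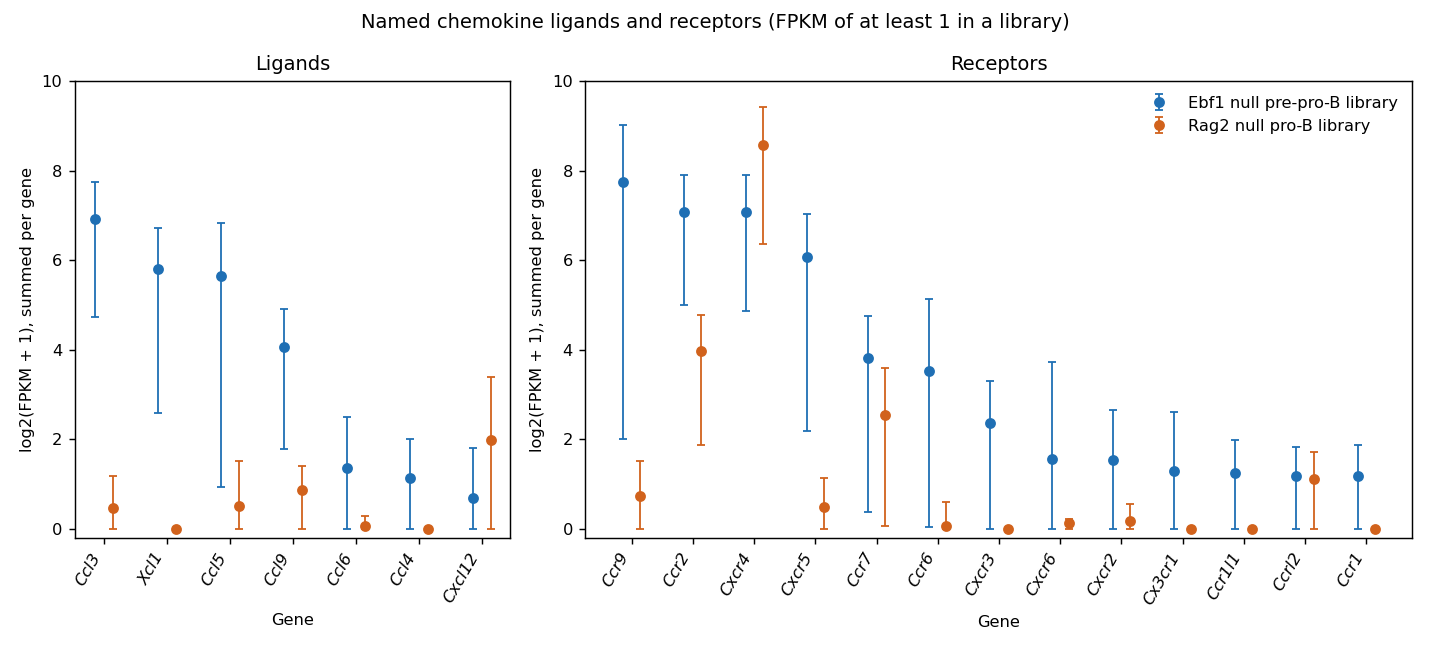
Level of the 7 ligands and 13 of the 14 receptors that reached 1 FPKM in a library, as log2(FPKM + 1), in the 1 pre-pro-B library (blue) and the 1 pro-B library (orange). Points are FPKM summed per gene and bars are the summed Cuffdiff 95% intervals, which hold no replicate error. The intervals stand apart for Ccl3, Xcl1, Ccl9, Ccr9, Ccr2 and Cxcr5, and Cxcr4 and Cxcl12 are the only genes with the orange point on top.

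Cxcr4, the Cxcl12 receptor that retains B cell precursors in the marrow, was the dominant receptor of pro-B cells. It had 133.5 FPKM in pre-pro-B cells against 382 FPKM in pro-B cells, 2.86-fold higher, and made up 21.9% of the summed receptor FPKM in pre-pro-B and 91.6% in pro-B cells. The intervals of 27.9 to 238 and 80.6 to 680 FPKM overlapped. In the order of all genes, 98.4% had a lower FPKM than Cxcr4 in pre-pro-B cells, and 99.6% did in the pro-B library. Neither Cxcr4 nor Cxcl12 had a 32-base stretch in common with another member. Ackr3, the atypical second receptor of Cxcl12, had 0.111 FPKM in pre-pro-B and 0.107 FPKM in pro-B cells.

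Ccr9, which draws progenitors to the thymus and marks plasmacytoid dendritic cells, had the highest receptor level of pre-pro-B cells and, with the pseudocount of 1 FPKM, the largest log2 difference of all 62 genes. With a pseudocount of 0.1 FPKM, Xcl1 (-9.10) stood before Ccr9 (-8.12). Ccr9 had 212 FPKM in pre-pro-B and 0.661 FPKM in pro-B cells, 321-fold lower, with a log2 difference of -7.00 and rank 10 among the falls of all genes. Its transcripts divided that signal in different ways. NM_001166625 had 83.0 and 0.660 FPKM, and NM_009913 had 129 and 0.000248 FPKM, so that 60.8% of the gene in pre-pro-B cells but 0.0375% of it in pro-B cells was assigned to NM_009913. The transcripts are 4392 and 4324 bases long, and their split is an estimate of the program.

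Cxcr5, the receptor for Cxcl13 that guides mature B cells into follicles, had 66.3 FPKM in pre-pro-B cells (3.54 to 129) and 0.391 FPKM in pro-B cells (0 to 1.19), 170-fold lower. Ccr2, the Ccl2 receptor of monocytes and early progenitors, had 134 FPKM (30.8 to 236) and 14.6 FPKM (2.63 to 26.5), 9.17-fold lower. Both pairs of intervals stood apart. Among member transcripts, 6 had a pro-B interval wholly below that of pre-pro-B cells (those of Ccl3, Ccl9, Xcl1, Ccr2, Cxcr5 and the Ccr9 transcript NM_009913), against 1.44% of all protein-coding transcripts, and none had one wholly above it, against 0.671%.

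Among the CC receptors, Ccr2 and Ccr7 also stayed above 1 FPKM in pro-B cells. Ccr7, the receptor for Ccl19 and Ccl21 that leads cells to lymph nodes, had 13.1 FPKM (0.300 to 26.0) and 4.80 FPKM (0.0400 to 11.1), 2.73-fold lower.

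Ccr6, the Ccl20 receptor, had 10.4 FPKM in pre-pro-B cells over 7 transcripts, 74.2% of it in NM_001190333, and 0.0463 FPKM in pro-B cells. Cxcr3, the receptor of activated T and NK cells, had 4.16 FPKM (0 to 8.82) and was listed at 0 in pro-B cells. The other lower receptors named here were under 2 FPKM in pre-pro-B cells. Cxcr6 had 1.94 and 0.0944 FPKM, and its gene overlaps Fyco1 on the opposite strand. Cxcr2, the neutrophil receptor, had 1.89 and 0.134 FPKM. Cx3cr1, the fractalkine receptor, had 1.46 FPKM, Ccr1l1 had 1.37 FPKM and Ccr1 had 1.25 FPKM in pre-pro-B cells, and these 3 genes were listed at 0 in pro-B cells. Ccrl2, an atypical receptor that presents chemerin, had nearly equal values of 1.27 and 1.15 FPKM, a log2 difference of -0.08, and was the one member above 1 FPKM that was not called.

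Of the 11 CC receptors, 7 (63.6%) were lower and none was higher (400 and 33.0 FPKM in sum). Of the 6 CXC receptors, 4 (66.7%) were lower and 1 (16.7%) was higher (208 and 383 FPKM in sum). Among all protein-coding genes, 9.94% were lower and 6.34% higher. All 11 CC receptors had the larger value in pre-pro-B cells. None of the 5 atypical receptors was called, and their sum was 1.53 FPKM in pre-pro-B and 1.32 FPKM in pro-B cells. The other 9 receptors with less than 1 FPKM in both libraries besides Ackr3 reached at most 0.356 FPKM, the pre-pro-B value of Ccr10. Ccr8, Ccr4, Ccr3 and Xcr1 had 0.297, 0.168, 0.136 and 0.0439 FPKM in pre-pro-B cells, and all were listed at 0 in pro-B cells. Ackr1 and Cxcr1 were listed at 0 in both.

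**Figure D3:**
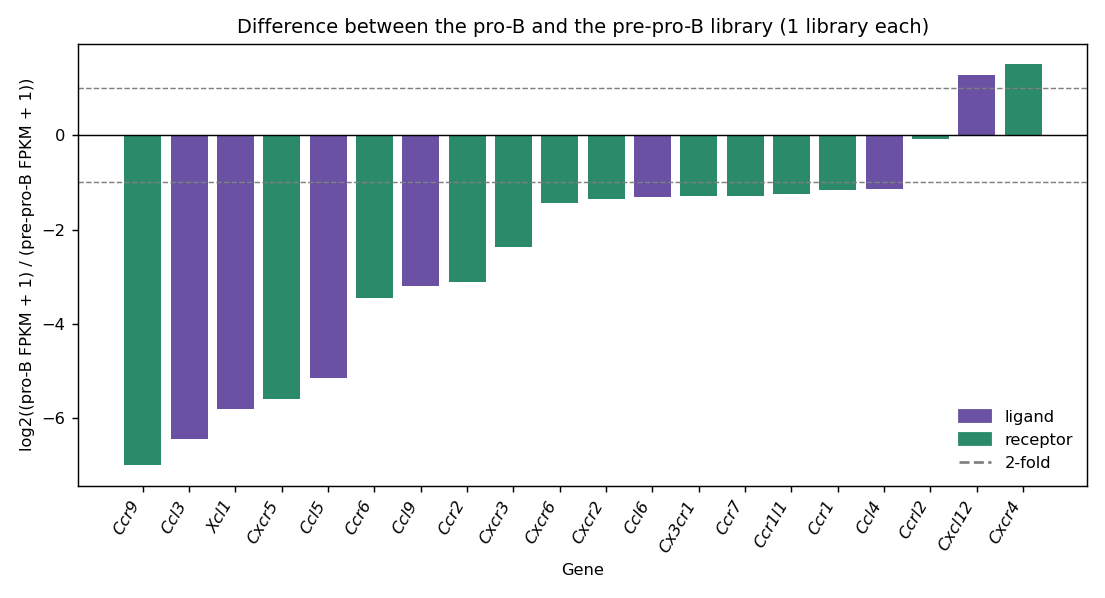
Difference of the 20 named members that reached 1 FPKM in a library, as log2((pro-B FPKM + 1)/(pre-pro-B FPKM + 1)), 1 library per cell type, ligands in purple and receptors in green, with dashed lines at 2-fold. Bars run from -7.00 for Ccr9 to 1.51 for Cxcr4, and Ccrl2 is the only gene between the dashed lines.

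Many markers of other cell types had the direction of the ligands and receptors that were lower in pro-B cells. Of all protein-coding genes, 9.94% were called lower and 6.34% higher. Of 15 T and NK cell genes, all 15 had the larger FPKM in pre-pro-B cells and 8 were called lower (254 and 3.91 FPKM in sum). Trat1 had 95.7 FPKM, the granzyme gene Gzma 56.3 FPKM, the T cell receptor subunit gene Cd3g 36.8 FPKM and the NK granule gene Nkg7 31.3 FPKM in pre-pro-B cells, whereas the defining T cell genes Cd3e and Cd8a had 0.239 and 0.322 FPKM. Of 18 myeloid genes measured, 8 were lower and none was higher (965 and 16.3 FPKM in sum). Most of that sum was Tyrobp (463 and 1.28 FPKM) and Fcer1g (395 and 1.46 FPKM), adaptor genes shared with NK and dendritic cells. The granule gene Mpo had 35.7 and 0.122 FPKM, Ly6c2 had 21.8 and 0.0803 FPKM, Itgam had 19.7 and 6.40 FPKM, and Adgre1 had 11.7 and 0.111 FPKM. Lyz2 had 5.39 FPKM in pre-pro-B cells and was listed at 0 in pro-B cells. Csf1r, the receptor gene of macrophages, had 0.170 FPKM in pre-pro-B cells, and Elane, Ctsg, Lyz1 and Ms4a3 were listed at 0 in both.

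Of 10 dendritic cell genes, 5 were lower and 2 were higher (530.3 and 133 FPKM in sum), against 9.94% and 6.34% of all protein-coding genes. Klrd1, also an NK receptor gene, had 353 and 2.89 FPKM, Siglech, a plasmacytoid dendritic cell gene, had 54.3 and 0.236 FPKM, Irf8 had 66.9 and 27.0 FPKM, and Tcf4 had 35.3 and 75.8 FPKM. Clec9a and Cd209a, which define conventional and monocyte-derived dendritic cells, were at or near 0. Of 9 mast cell, basophil and eosinophil genes, 7 were listed at 0 in both libraries and 1, Cpa3 (10.5 and 0.0296 FPKM), was lower. The part of T, NK, myeloid or dendritic cells in the ligand and receptor differences was not tested.

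Many chemokine genes lie in clusters, which differed in how many members were called. Of all protein-coding genes, 9.94% were called lower and 6.34% higher, so a cluster of 5 or 6 genes with none called does not stand out. The clusters are given without the 1 member that is not reported here by name. On mm9, Ccl5, Ccl9, Ccl6, Ccl3 and Ccl4 lie within 139 kb at chr11:83339281-83478185, and all 5 were lower in pro-B cells. A second CC ligand cluster on the same chromosome, at chr11:81849079-81993314, holds Ccl2, Ccl7, Ccl11, Ccl12, Ccl8 and Ccl1, and none of these 6 reached 1 FPKM in either library. Ccr9, Cxcr6, Xcr1, Ccr1, Ccr1l1, Ccr3 and Ccr2 lie within 348 kb at chr9:123676329-124023879, and 5 of these 7 were lower in pro-B cells. The levels of these 7 receptors were uneven. Ccr9 and Ccr2, the first and last of the 7, had 212 and 134 FPKM in pre-pro-B cells, and the 5 genes between them had at most 1.94 FPKM. Of the CXC ligands within 147 kb at chr5:91188325-91334964 (Cxcl5, Cxcl3, Cxcl15, Cxcl1 and Cxcl2), none was called. Cxcr4 (chr1:130484776-130488870), Cxcl12 (chr6:117118553-117131385), Xcl1 (chr1:166861775-166865658) and Cxcr5 (chr9:44319871-44334504) lie outside these clusters.

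**Figure D4:**
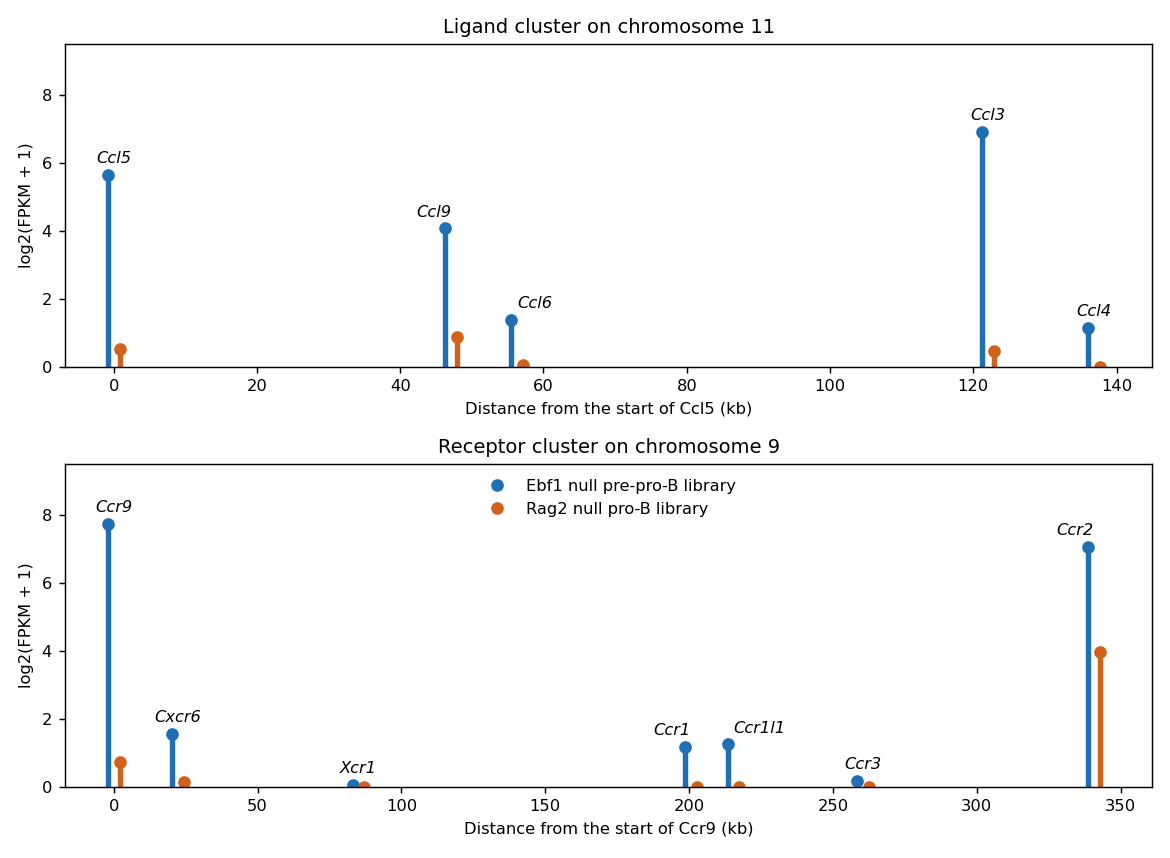
Level of each gene, as log2(FPKM + 1), against its distance in kb from the first gene of the cluster. The panels hold the 5 ligands on chromosome 11 (top) and 7 receptors on chromosome 9 (bottom), without the member not reported by name. The pre-pro-B library is blue and the pro-B library orange, 1 library each. All 5 ligands stand lower in pro-B cells, and the tall receptor bars are the first and last of the 7 drawn, with Ccr2 still at 14.6 FPKM in pro-B cells.

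Promoter sequences from RefSeq (GRCm38.p6) are shown for the genes that carry these differences: both genes that were higher in pro-B cells, the receptor and the ligand with the largest falls at a pseudocount of 1 FPKM (Ccr9 and Ccl3, with Xcl1 ahead of both at 0.1 FPKM), and Cxcl1 as a nearly silent ligand with an NF-κB motif. Each run holds the 250 bases before the start site, 5′ to 3′ on the strand of the gene. Capitals mark every match to a motif searched on both strands: CAGCTG and CACCTG (E-boxes), CCCNNGGG (the core bound by Ebf1), GGGACTTTC and GGGAATTTC (NF-κB), GAGGAA (the PU.1 core) and TATAA (the TATA box, added after the windows were seen). A match is a description of letters, not a bound site.

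Cxcr4, chr1:128592300-128592549, minus strand: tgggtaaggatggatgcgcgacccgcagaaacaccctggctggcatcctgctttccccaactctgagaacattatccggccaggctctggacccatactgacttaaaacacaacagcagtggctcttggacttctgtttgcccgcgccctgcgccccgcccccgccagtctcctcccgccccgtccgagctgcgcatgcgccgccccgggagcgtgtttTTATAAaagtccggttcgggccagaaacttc

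Cxcl12, chr6:117168285-117168534, plus strand: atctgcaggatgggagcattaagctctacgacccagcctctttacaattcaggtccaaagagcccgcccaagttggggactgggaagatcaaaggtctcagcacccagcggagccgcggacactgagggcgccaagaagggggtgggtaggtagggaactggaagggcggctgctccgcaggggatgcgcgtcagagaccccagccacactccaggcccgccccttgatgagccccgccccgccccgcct

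Ccr9, chr9:123766961-123767210, plus strand: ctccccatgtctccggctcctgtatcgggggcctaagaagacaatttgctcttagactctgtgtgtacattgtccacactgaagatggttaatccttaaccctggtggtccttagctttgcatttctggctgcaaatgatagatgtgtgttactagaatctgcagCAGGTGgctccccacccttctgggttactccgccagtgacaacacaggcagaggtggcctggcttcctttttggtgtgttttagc

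Ccl3, chr11:83649379-83649628, minus strand: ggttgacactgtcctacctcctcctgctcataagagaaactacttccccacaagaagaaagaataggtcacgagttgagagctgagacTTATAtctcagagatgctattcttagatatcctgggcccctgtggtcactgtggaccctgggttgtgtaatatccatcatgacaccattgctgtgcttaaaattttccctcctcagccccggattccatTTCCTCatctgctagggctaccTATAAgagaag

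Cxcl1, chr5:90890995-90891244, plus strand: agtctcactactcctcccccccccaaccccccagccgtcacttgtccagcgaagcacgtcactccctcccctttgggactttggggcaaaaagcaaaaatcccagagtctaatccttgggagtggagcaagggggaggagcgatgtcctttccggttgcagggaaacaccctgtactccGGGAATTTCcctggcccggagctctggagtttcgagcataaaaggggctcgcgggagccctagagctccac

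The Cxcr4 run holds overlapping TATAA matches on both strands, the first of them at -31 from the start site, and the Cxcl12 run holds no match. GC content was 61.2% in the Cxcr4 run and 64.4% in the Cxcl12 run, against 50.4% for Ccr9 and 46.8% for Ccl3. The Ccr9 run has 1 match, CACCTG on the reverse strand at -85. The Ccl3 run has a GAGGAA match on the reverse strand at -33 and TATAA matches at -162 and -11. The Cxcl1 run has GGGAATTTC at -71.

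Windows of 300 bases, from 250 before to 50 after the start site, were held for 47 members (56 windows), 13 of them lower in pro-B cells (14 windows). CACCTG occurred in 20.2% of all 32851 promoter windows, in 21.4% of member windows and in 28.6% of those of the lower members. CAGCTG occurred in 16.3%, 21.4% and 14.3%, GAGGAA in 28.3%, 32.1% and 35.7%, CCCNNGGG in 13.7%, 12.5% and 7.14%, and TATAA in 24.9%, 33.9% and 28.6% of the same groups. GGGAATTTC occurred in 0.259% of all windows and in 8.93% of member windows, namely those of Cxcl1, Cxcl2, Cxcl3, Cxcl9 and Ccr3, and in none of the lower members. Cxcl2, Cxcl3 and Cxcl9 were listed at 0 in both libraries, and Ccr3 had 0.136 FPKM in pre-pro-B cells and was listed at 0 in pro-B cells. GGGACTTTC occurred in 0.353% of all windows and in no member window.

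Ligands and receptors that bind each other were set side by side, without the pairs of the member not reported here by name. The pair counts therefore hold for the listed pairs only. Of 32 textbook pairs listed, 31 were measured on both sides. In pre-pro-B cells, both partners had at least 1 FPKM in 4 pairs, Ccl3, Ccl5, Ccl6 and Ccl9 with Ccr1 (1.25 FPKM, 0 to 2.64). In pro-B cells only the pair of Cxcl12 and Cxcr4 did, with 2.92 and 382 FPKM. Ccr9 and Ccl25 had 212 and 0.472 FPKM in pre-pro-B cells, and Cxcr5 stood at 66.3 FPKM with Cxcl13 listed at 0. Xcl1 stood at 54.9 FPKM in pre-pro-B cells with its receptor Xcr1 at 0.0439 FPKM.

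Genes that act downstream of chemokine receptors were expressed in both libraries. Of 28 signalling genes (Gi subunits, phosphoinositide 3-kinases, small GTPases, their exchange factors and integrin activators), 27 had at least 1 FPKM in the pre-pro-B library and 25 in the pro-B library. None was higher and 9 were lower, against 6.34% and 9.94% of all protein-coding genes. Their median log2 difference was -0.66, against -0.14 over all genes with at least 1 FPKM in a library. Cdc42, a small GTPase, had 351 and 262 FPKM, Coro1a, an actin regulator, had 204 and 163 FPKM, and Gnai2, the main Gi subunit of lymphocytes, had 155 and 109 FPKM, and none of these 3 was called. Gnai3 had 123 and 113 FPKM.

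Among 19 genes that turn receptor signals off, 6 were lower and 1 was higher, against 9.94% and 6.34% of all protein-coding genes. Their median log2 difference was -0.29, against -0.14 over all genes with at least 1 FPKM in a library. The kinase gene Grk2, whose product phosphorylates activated receptors, was the one that was higher (41.0 and 89.1 FPKM). Rgs18, which encodes a GTPase-activating protein for Gi, had 135 and 0.744 FPKM, 182-fold lower. Itch, the ubiquitin ligase that sorts Cxcr4 to lysosomes, had 67.5 and 72.7 FPKM, and Rgs2 had 39.7 and 45.1 FPKM.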

How the data were processed

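Total RNA depleted of ribosomal RNA was sequenced from 1 library of *Ebf1* -/- pre-pro-B cells and 1 library of *Rag2* -/- pro-B cells, with a strand-specific kit. The authors trimmed the reads, aligned them by strand to mm9 with TopHat (1.5 in the submitters' processing notes) and estimated RefSeq transcripts with Cuffdiff 2.1.1, with multi-read and bias correction and without scaling between libraries. The deposited values are FPKM, with a status and 95% interval limits, which are a signal on the FPKM scale. A deposited table of the authors' own comparison (folds, p-values and q-values) was not used.

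FPKM of protein-coding (NM_) rows, further loci included, were summed per gene with Python 3.11.15, pandas 2.3.3 and numpy 2.4.6, and drawn with matplotlib 3.10.9. A RefSeq gene table (GRCm38.p6) gave a symbol to 26173 of 26580 accessions. The fold used a pseudocount of 1 FPKM and a minimum of 1 FPKM in a library, at 2-fold. The script was tested on simulated data. Fragments were approximated from the about 90 M reads per library that the paper states. The mapped reads of each library, which the paper's supplement lists, were not used, so the fragment numbers are rough. By that estimate the 1.20 FPKM of Ccl4 was about 71.1 fragments. Such estimates cover counting error only, and the single library per cell type limits the precision. Coordinates are those of the file or of the mm9 annotation.

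Every member with at least 1 FPKM in a library was named with its values, except 1 that is not reported here by name, pairs with it included, but stays in the counts and sums, the others by range or in groups, and up to 4 genes of the highest FPKM from each list plus defining markers. Cxcl1, Cxcl5, Ccl25 and the other members named under 1 FPKM were picked after their values were seen. Cmtm8, which was called, and Pf4 and Ppbp were named outside the rule of 4 genes per list. Cmtm6 of the same list, with 58.8 and 35.7 FPKM, was left out. The members and lists were chosen with earlier results of these data known. Alternatives were other pseudocounts, filters and scalings, the most abundant transcript, rows with status OK and rows without further loci. Protein sequences were not analysed here.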

Additional observations from a re-analysis of the deposited data

Results flagged for a closer look

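A non-coding transcript of the Ccl25 gene, NR_033527, lay outside the sums of protein-coding transcripts and still had signal above the limit that a count of 0 allows (3 fragments, or 0.0308 FPKM). It had 1.51 FPKM in pre-pro-B cells (0 to 4.50) and, with an interval of 0 to 10.3, 3.95 FPKM in pro-B cells, more than the protein-coding transcript of Ccl25 in each library (0.472 and 0.905 FPKM). The 2 intervals overlapped. The non-coding transcript of Cxcl11 was listed at 0 in both.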

How the results depend on the processing

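With 1 library per cell type no replicate could be left out, and no paired analysis was possible because there is 1 library per cell type. A pseudocount or a filter cannot turn the direction of a gene, and leaving out further loci or rows without status OK changed no value of the 20 named genes. With a pseudocount of 5 FPKM, 0 ligands were higher and 4 receptors were lower in pro-B cells, and 10 named genes came under 2-fold (Ccl4, Ccl6, Ccr1, Ccr1l1, Ccr7, Cx3cr1, Cxcl12, Cxcr2, Cxcr3 and Cxcr6). With a minimum of 5 FPKM, 0 ligands were higher and 6 receptors were lower, as fewer genes could be called. Median-ratio scaling moved log2 ratios by 0.09 before the addition of 1, and by less after it. It kept all 20 named genes on their side of 2-fold, and 11 receptors were lower in place of 12. TPM scaling moved the ratios by -0.09 before the addition of 1, also with all 20 on their side and with 12 receptors lower. A pseudocount of 0.1 FPKM put Xcl1 (-9.10) before Ccr9 (-8.12) and Ccl3 (-7.96). When a gene was called only where its summed Cuffdiff intervals did not overlap, which was chosen after seeing the data, 0 ligands were higher, 3 ligands were lower, 0 receptors were higher and 3 receptors were lower, so neither Cxcr4 nor Cxcl12 was called. The other 52 counts and sums stayed within 1.5 times or the limits set for them. The planned description of protein sequences was not run. Without replicates, no difference can be set against the spread between cultures.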

Other observations

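Genes near the chemokine system that the symbols left out were few and mixed. Of 11, 1 was higher and 1 was lower in pro-B cells, near the 6.34% and 9.94% of all protein-coding genes. The median log2 difference was 0. Dpp4, the surface peptidase that trims and inactivates Cxcl12 and other chemokines, had 14.6 FPKM in pre-pro-B cells (0.365 to 34.7 by its interval) against 475 FPKM in pro-B cells (3.03 to 1276), 32.5-fold higher, with intervals that overlapped. Cmtm8 had 5.14 FPKM and was listed at 0 in pro-B cells. Mif, a cytokine that can also bind Cxcr4 and Cxcr2, had 68.7 and 133 FPKM, under 2-fold. Cmtm7 had 320 and 209 FPKM. Pf4 and Ppbp, the platelet chemokine genes Cxcl4 and Cxcl7, were listed at 0 in both libraries.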
